A study of Mus musculus with 12 samples.

Results

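The genes described here are the Wnt ligands, their Frizzled receptors and co-receptors, the secreted Wnt antagonists and a small set of intracellular Wnt components in the mouse left atrium (LA). The rule that selects them uses gene names and no measured value: all rows of the count table named *Wnt*, *Fzd*, *Sfrp* or *Dkk* with a number, with *Dkkl1*, plus *Axin1*, *Axin2*, *Tcf7*, *Lef1*, *Tcf7l1*, *Tcf7l2*, *Ctnnb1*, *Lrp5*, *Lrp6*, *Ror1*, *Ror2*, *Porcn*, *Wif1*, *Rspo1* and *Rspo3*. This gave 53 of the 54658 genes in the table. RNA-seq was performed on single LA from 6 control mice (genotype αMHC-rtTA, 4 female and 2 male) and 6 iNICD mice (αMHC-rtTA with tetO-NICD, 3 female and 3 male). Both groups were 2 to 3 months old, were on a mixed genetic background and ate doxycycline chow for 3 weeks with no washout, so the controls carried the transactivator and took the drug as well. In iNICD mice doxycycline switches on the Notch intracellular domain (NICD), the active form of the Notch receptor, in cells where the αMHC promoter is active, which are cardiomyocytes (CMs), and the comparison asks how CM Notch activation alters LA transcripts. The LA was sequenced whole, so for every gene below fewer cells of a type and less RNA per cell cannot be told apart.

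Wnt proteins are secreted signals that are lipid-modified by the acyltransferase Porcn and bind Frizzled receptors together with a co-receptor. With Lrp5 or Lrp6 the signal stabilizes β-catenin (*Ctnnb1*), which enters the nucleus and acts with Tcf and Lef factors, whereas Ror receptors carry β-catenin-independent signals. Secreted Frizzled-related proteins and Wif1 bind the ligands themselves, Dkk1 blocks the Lrp co-receptors, R-spondins raise receptor levels, and Axin proteins scaffold the complex that destroys β-catenin, with *Axin2* itself a common transcriptional target of the pathway.

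Library totals were 21555678 to 26902478 reads in control LA and 21432632 to 27182038 in iNICD LA. *Notch1*, whose row could receive the reads of the transgene, had 2335 to 3311 reads in controls and 71187 to 107667 in iNICD mice. Cardiomyocyte marker genes summed to 62545 to 79797 normalized CPM in control LA and 55996 to 65628 in iNICD LA, and 1 of 8, *Tnnt2*, was lower in iNICD LA. The 4 ventricular markers summed to 3.39 to 5.87 normalized CPM in control LA and 4.09 to 6.54 in iNICD LA; *Irx4* was at 0 in all 12 libraries, while *Myl3* (1.77 in control LA and 1.76 in iNICD LA) and *Hey2* (2.27 and 2.57) were detected at low mean levels. Control replicates are numbered as in the sample titles; the descriptions exchange the numbers 4 and 5, so the library called control replicate 5 here, a male, carries the number 4 in its description and in the count table. Control replicate 5 stood apart from the other controls: among the 33 members that could be tested it was the lowest control for 16 and the highest for 9. In 6 of them this library differed 2-fold or more from the average normalized CPM of the remaining controls. Without it, *Dkk3* was the only named member that changed its call, and the log2 fold changes of *Wnt11* (0.15), *Sfrp1* (-0.09), *Fzd7* (0.05) and *Fzd4* (0.05) stayed without a call.

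Of the 53 members, 33 had more than 1 CPM (counts scaled to a common library total) in at least 6 of the 12 libraries and were tested in 1 fit with all other genes that met this rule (13541 in all). Normalized CPM use the library total after TMM adjustment, and log2 fold changes are iNICD minus control, given ± SE. At an adjusted p under 0.05 in edgeR's quasi-likelihood test, 1 of 33 tested members was higher in iNICD LA (*Lrp6*; 3.03%, against 2.78% of all tested genes) and 1 was lower (*Fzd2*; 3.03%, against 1.34% of all tested genes). Groups were without overlap (all 6 libraries of one beyond all 6 of the other) for 1 higher member (*Lrp6*; 2.58% of all tested genes) and for 2 lower members (*Fzd2* and *Wnt9a*; 6.06% of tested members against 1.25% of all tested genes). At an unadjusted p under 0.05 there were 2 higher members, *Lrp6* and *Porcn* (6.06%, against 9.32% of all tested genes), and 6 lower members, *Fzd2*, *Wnt9a*, *Dkk3*, *Sfrp5*, *Axin2* and *Tcf7l1* (18.2%, against 8.09% of all tested genes). The median log2 fold change of the tested members was -0.05, with 11 above 0 and 22 below, beside -0.01 for all tested genes. The share of members called higher was therefore near the background.

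**Figure D1:**
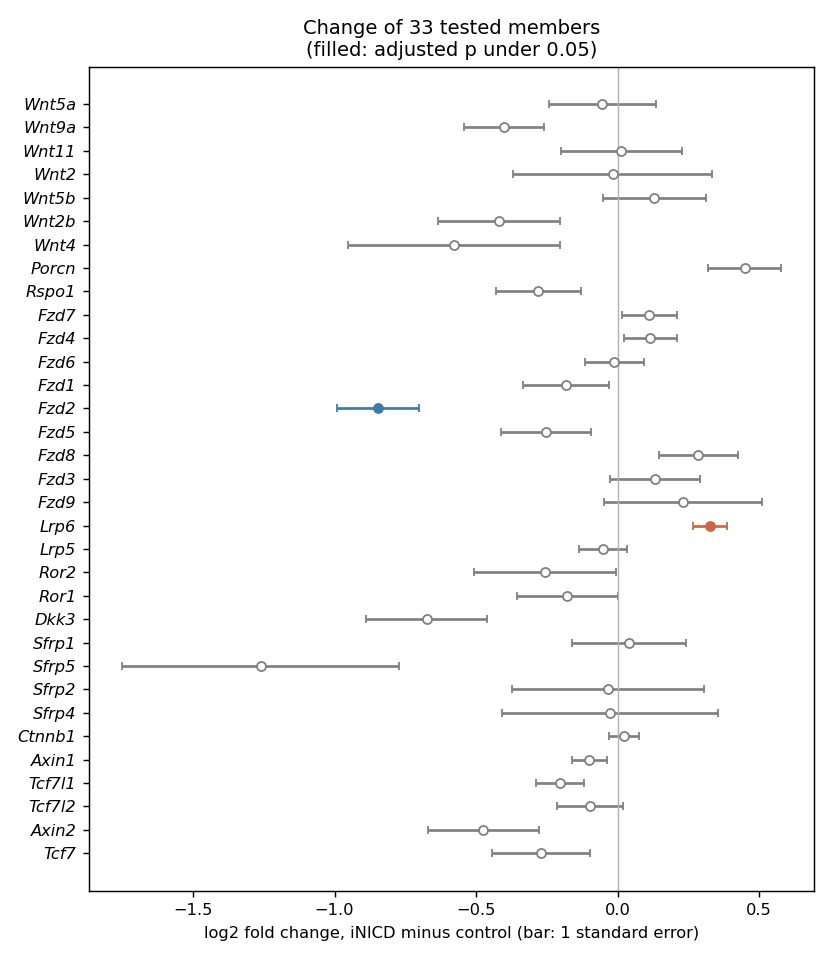
Log2 fold change (x axis, iNICD minus control, bars 1 SE) of the 33 tested members, ordered by role and then by mean level. *Fzd2* at -0.85 and *Lrp6* at 0.33 are filled because their adjusted p was under 0.05; *Sfrp5* at -1.26 lies farther from 0 but has an SE of 0.49.

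The 31 tested members that did not pass had log2 fold changes between -1.26 and 0.45 and edgeR adjusted p between 0.0764 and 0.986. Over all 33 tested members, the spread between animals was a median CV of 22.0% in the controls and 13.4% in the iNICD libraries. DESeq2 and edgeR's exactTest each called 4 of 33 members on the same counts, since both added *Porcn* as higher and *Dkk3* as lower. These 4 were 12.1% of tested members, against 7.82% of all tested genes called by DESeq2 in either direction and 5.69% by exactTest.

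Among the receptors, *Fzd2* was lower in iNICD LA. It is a Frizzled that can carry both β-catenin-dependent and β-catenin-independent signals, and lies at chr11:102604396-102608058 on the plus strand (GRCm38), a single exon that no other annotated gene overlaps. *Fzd2* had lowest, median and highest values of 15.4, 22.1 and 25.4 normalized CPM in control LA and of 9.35, 11.5 and 14.0 in iNICD LA. Every iNICD library was below every control, with the highest iNICD library, replicate 6, still under the 2 lowest controls, replicates 1 and 6 at 15.4 each. The log2 fold change was -0.85 ± 0.15, which is 0.556 of the control level, with an edgeR adjusted p of 0.00508 and an exact two-sided permutation p of 0.00216, the smallest that 12 libraries allow. Without control replicate 5, where *Fzd2* was the highest of all libraries, the log2 fold change was -0.79 (edgeR adjusted p = 0.00727). Within female libraries it was -0.86 (edgeR adjusted p = 0.0375) and within male libraries (2 control and 3 iNICD) -0.83 (edgeR adjusted p = 0.775).

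*Fzd2* is close in sequence to *Fzd1* and *Fzd7*, so its reads were checked for ambiguity. In the coding sequence of *Fzd2* (1710 bases), the longest run found unchanged in another Frizzled was 47 bases, shared with *Fzd1*, followed by 38 bases shared with *Fzd7*, and the reads were 50 bases long. No 50-base stretch of the *Fzd2* transcript occurred in a transcript of another gene. The 50 bases of *Fzd2* around the longest run, coding bases 1007 to 1056, are shown with the closest 50 bases of both relatives, in the direction of each gene and with bases that differ from *Fzd2* in capitals; *Fzd1* differed at 2 positions and *Fzd7* at 5.
Fzd2 (chr11:102605738-102605787, plus strand): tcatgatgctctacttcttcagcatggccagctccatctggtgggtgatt
Fzd1 (chr5:4756330-4756379, minus strand): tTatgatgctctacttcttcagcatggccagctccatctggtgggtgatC
Fzd7 (chr1:59483972-59484021, plus strand): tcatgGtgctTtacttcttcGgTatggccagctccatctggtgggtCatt

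Neither relative passed the test. *Fzd1* had between 14.9 and 28.2 normalized CPM in control LA (median 20.4) and between 15.6 and 21.8 in iNICD LA (median 18.5), and the groups overlapped (log2 fold change -0.18 ± 0.15, edgeR adjusted p = 0.576). *Fzd7*, also close to *Fzd2* in sequence, ranged between 36.2 and 54.0 normalized CPM in control LA (median 48.7) and between 46.3 and 59.4 in iNICD LA (median 50.3), and 2 iNICD libraries lay above all controls. Its log2 fold change was 0.11 ± 0.10 with an edgeR adjusted p of 0.583. *Fzd4*, the receptor for norrin as well as Wnts and known for its part in vessels, ranged between 50.9 and 75.9 normalized CPM in control LA (median 65.3) and between 65.5 and 82.6 in iNICD LA (median 69.6) and overlapped (log2 fold change 0.12 ± 0.09, edgeR adjusted p = 0.564). *Fzd6*, known mainly from planar cell polarity, ranged between 30.3 and 43.6 normalized CPM in control LA (median 32.7) and between 29.3 and 40.01 in iNICD LA (median 33.5), with a log2 fold change of -0.01 ± 0.10 and an edgeR adjusted p of 0.971. The other 4 tested receptors did not pass either: *Fzd3*, *Fzd8* and *Fzd9* had log2 fold changes of 0.13, 0.29 and 0.23, and *Fzd5* of -0.25. *Fzd10* had at most 4 reads in any library and was not tested.

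Per length, in RPKM (normalized CPM per kilobase), the Frizzled transcripts were ordered *Fzd7* (10.5 ± 1.37, SD, n = 6), *Fzd4* (9.78 ± 1.34), *Fzd6* (7.15 ± 1.02), *Fzd2* (5.72 ± 1.26), *Fzd1* (5.05 ± 1.24) and *Fzd5* (2.48 ± 0.535) in control LA, followed by *Fzd8* (1.21), *Fzd3* (0.940) and *Fzd9* (0.704). *Fzd7* and *Fzd4* differed by less than their SD, as did *Fzd2* and *Fzd1*. In iNICD LA *Fzd2* averaged 3.18 ± 0.408 RPKM and *Fzd1* 4.45 ± 0.595. The summed Frizzled level was 39.8 to 47.5 RPKM in control LA and 39.0 to 45.0 in iNICD LA, and the groups overlapped (exact permutation p = 0.411). *Fzd2* made up 10.5% to 16.4% of that sum in the controls (median 13.2%) and 6.49% to 8.49% in the iNICD libraries (median 7.67%). These shares did not overlap; they contain the *Fzd2* counts tested above and are no separate evidence.

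**Figure D2:**
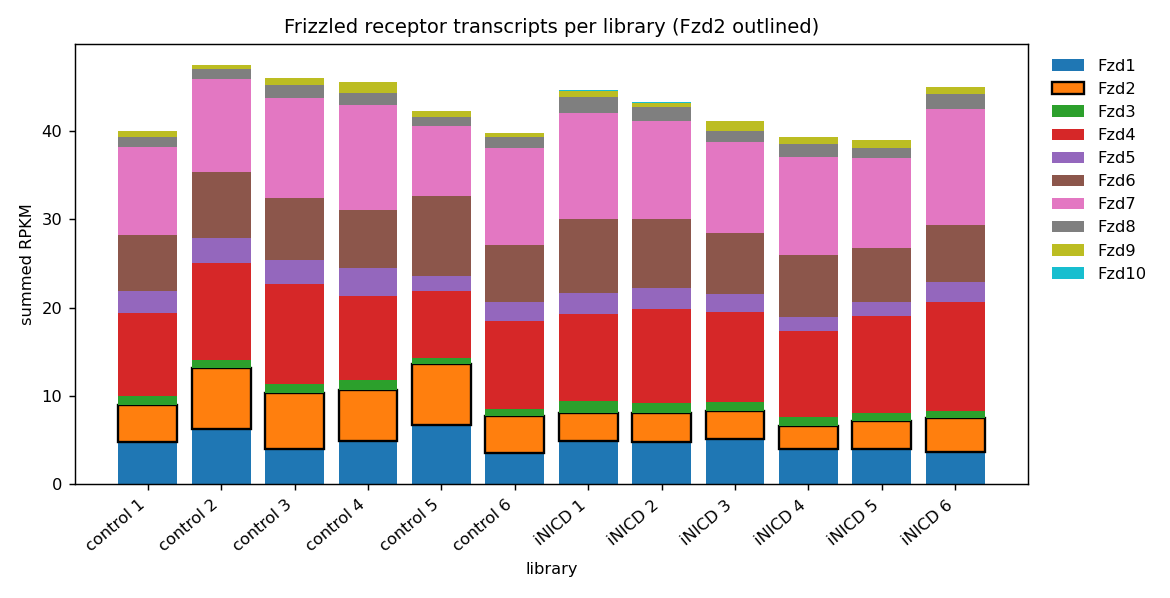
Summed RPKM of the 10 Frizzled genes (y axis) in each of the 12 libraries (x axis), stacked by gene, with *Fzd2* outlined. The bars reach similar heights in both groups (39.8 to 47.5 in control and 39.0 to 45.0 in iNICD), while the *Fzd2* layer is thinner in all 6 iNICD libraries.

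Among the co-receptors, *Lrp6* was higher in iNICD LA. Lrp6 is the co-receptor that, once phosphorylated, binds Axin and passes on the β-catenin signal, and its gene lies at chr6:134446476-134566965 on the minus strand (GRCm38). *Lrp6* had lowest, median and highest values of 119, 128 and 134 normalized CPM in control LA and of 148, 158 and 181 in iNICD LA. All 6 iNICD libraries were above all 6 controls, and the controls lay close together, with a CV of 4.31%. The log2 fold change was 0.33 ± 0.06, a 1.25-fold rise (edgeR adjusted p = 0.00753, exact permutation p = 0.00216). Without control replicate 5, the lowest library for *Lrp6*, it was 0.31 (edgeR adjusted p = 0.00874). Within each sex *Lrp6* did not pass, at 0.36 in female libraries (edgeR adjusted p = 0.0514) and 0.29 in male libraries (edgeR adjusted p = 0.775).

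The close relative *Lrp5* ranged between 62.7 and 77.3 normalized CPM in control LA (median 71.6) and between 58.1 and 81.0 in iNICD LA (median 66.6) and overlapped (log2 fold change -0.05 ± 0.09, edgeR adjusted p = 0.801). Per length, *Lrp6* averaged 9.34 ± 0.403 RPKM (SD, n = 6) in control LA and 11.7 ± 0.908 in iNICD LA, beside 7.17 ± 0.607 and 6.93 ± 0.831 for *Lrp5*. *Ror2*, a receptor tyrosine kinase for Wnt5a, ranged between 8.61 and 26.2 normalized CPM in control LA (median 12.2) and between 9.36 and 17.5 in iNICD LA (median 11.02). It overlapped, with control replicate 2 far above the rest of its group, and its log2 fold change of -0.26 ± 0.25 did not pass (edgeR adjusted p = 0.639); without control replicate 2 it was 0.01. *Ror1* did not pass either (log2 fold change -0.18 ± 0.18, edgeR adjusted p = 0.648). Control replicate 5 stood at 10.4 normalized CPM for *Ror1*, the other controls between 4.98 and 6.95 and the iNICD libraries between 5.14 and 6.31.

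**Figure D3:**
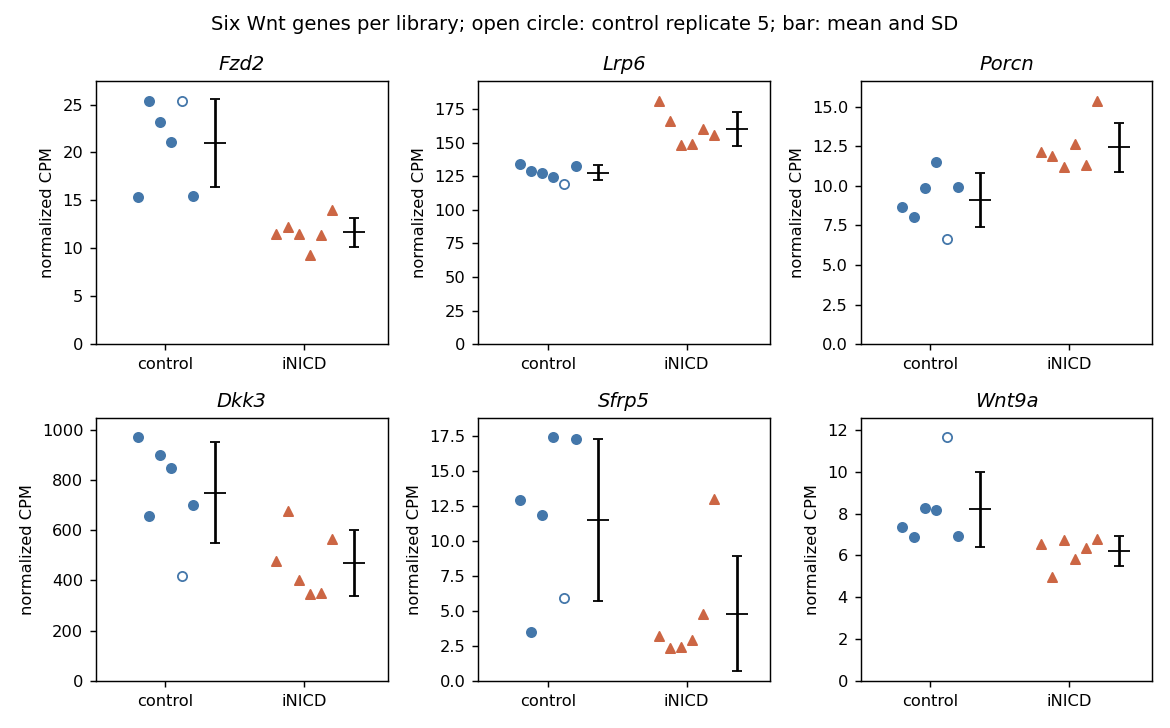
Normalized CPM (y axis, from 0) of *Fzd2*, *Lrp6*, *Porcn*, *Dkk3*, *Sfrp5* and *Wnt9a* in each control (circles) and iNICD (triangles) library, with the mean and SD of each group as a black bar and control replicate 5 as an open circle. The groups separate for *Fzd2*, *Lrp6* and, narrowly, *Wnt9a*, and overlap for the other 3 genes.

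Among the ligands, 7 of 19 were expressed above the filter and none was called in either direction by edgeR at an adjusted p under 0.05 (at an unadjusted p under 0.05, 0 were higher and 1 was lower; DESeq2 and exactTest also called 0). *Wnt5a*, a ligand best known for β-catenin-independent signaling, was the most abundant per length at 4.59 ± 1.31 RPKM (SD, n = 6) in control LA and 4.43 ± 0.521 in iNICD LA. It ranged between 16.8 and 47.6 normalized CPM in control LA (median 37.9) and between 28.2 and 39.8 in iNICD LA (median 35.5), with control replicate 5 the lowest of all libraries. The groups overlapped and the log2 fold change was -0.05 ± 0.19 (edgeR adjusted p = 0.912); without control replicate 5 it was -0.20 (edgeR adjusted p = 0.289).

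*Wnt9a*, a ligand of the β-catenin branch, had lowest, median and highest values of 6.86, 7.77 and 11.7 normalized CPM in control LA and of 4.98, 6.45 and 6.81 in iNICD LA. The groups did not overlap, but little room lay between the highest iNICD library and the lowest control, and control replicate 5 was far above the other controls. The log2 fold change was -0.40 ± 0.14, and it did not pass (edgeR adjusted p = 0.150, exact permutation p = 0.00216); without control replicate 5 it was -0.28 (edgeR adjusted p = 0.161). *Wnt11*, which acts mainly without β-catenin and is known from heart development, ranged between 3.25 and 6.32 normalized CPM in control LA (median 4.01) and between 2.74 and 6.61 in iNICD LA (median 4.12) and overlapped (log2 fold change 0.01 ± 0.21, edgeR adjusted p = 0.983). The 4 remaining tested ligands, *Wnt2*, *Wnt2b*, *Wnt4* and *Wnt5b*, averaged under 1 RPKM in both groups. Their log2 fold changes were -0.02, -0.42, -0.58 and 0.13, with SE of 0.35, 0.22, 0.38 and 0.18. For *Wnt4*, control replicate 5 stood at 5.66 normalized CPM, the other controls between 1.12 and 2.36 and the iNICD libraries between 1.23 and 2.19.

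*Wnt9a* is the one member with non-overlapping groups for which RefSeq gave a promoter window, and its 250 bases before the start (GRCm38.p6, chr11:59306680-59306929, plus strand) are shown for that reason, chosen after its values were seen.
Wnt9a: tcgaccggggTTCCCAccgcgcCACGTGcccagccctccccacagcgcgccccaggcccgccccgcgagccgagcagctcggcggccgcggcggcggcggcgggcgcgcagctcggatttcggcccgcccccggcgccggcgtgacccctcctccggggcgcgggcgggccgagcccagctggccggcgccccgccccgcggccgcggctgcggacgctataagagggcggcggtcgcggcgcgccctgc
The capitals mark 2 motif matches. TGGGAA, the core bound by RBPJ, the DNA-binding partner of NICD, lies at -240 to -235 from the start on the other strand, where it reads TTCCCA, and CACGTG, an E-box of the type bound by the Notch targets Hey and Hes, at -228 to -223. Searched on both strands over 300 bases a window, TGGGAA was present in 25.6% of 32851 windows of all genes and in 7 of 45 windows of the 36 members that had one, CACGTG in 7.15% and in 4 of 45, and ATCAAAG, the core bound by Tcf and Lef factors, in 3.73% and in 2 of 45. These matches describe letters in a window and are not evidence of binding. *Fzd2*, *Lrp6*, *Porcn* and *Dkk3* had no entry.

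*Porcn*, which every Wnt ligand needs for its lipid, had lowest, median and highest values of 6.65, 9.27 and 11.5 normalized CPM in control LA and of 11.2, 12.004 and 15.4 in iNICD LA. The groups overlapped, although 4 of 6 iNICD libraries were above all controls. The log2 fold change was 0.45 ± 0.13, and the edgeR adjusted p of 0.0764 missed the threshold (exact permutation p = 0.00649); it passed in DESeq2 (adjusted p = 0.0209), in exactTest (adjusted p = 0.0453) and without control replicate 4 (edgeR adjusted p = 0.0465). *Rspo1*, the R-spondin above the expression filter, ranged between 12.3 and 19.6 normalized CPM in control LA (median 13.6) and between 9.20 and 15.6 in iNICD LA (median 12.3). It overlapped, with 3 iNICD libraries below all controls, and its log2 fold change of -0.28 ± 0.15 did not pass (edgeR adjusted p = 0.360).

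The secreted antagonists included the most abundant member, *Dkk3*, a divergent Dickkopf protein whose part in Wnt signaling is unsettled. *Dkk3* averaged 223 ± 59.7 RPKM (SD, n = 6) in control LA and 139.7 ± 39.1 in iNICD LA. It had lowest, median and highest values of 419.6, 774 and 970.1 normalized CPM in control LA and of 346, 438 and 677 in iNICD LA. The groups overlapped: 4 controls were above all iNICD libraries, 3 iNICD libraries were below all controls, and control replicate 5 was the lowest control. The log2 fold change was -0.67 ± 0.21 and did not pass (edgeR adjusted p = 0.108, exact permutation p = 0.0238). Without control replicate 5 it was -0.80 and passed (edgeR adjusted p = 0.0220), as it did in DESeq2 (adjusted p = 0.0260) and exactTest (adjusted p = 0.0423).

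*Sfrp5*, a secreted Frizzled-related protein that binds Wnt5a and Wnt11, had lowest, median and highest values of 3.47, 12.4 and 17.4 normalized CPM in control LA and of 2.38, 3.08 and 13.0 in iNICD LA. The other iNICD libraries lay at or under 4.76, iNICD replicate 6 stood far above them, and controls 2 and 5 were low, so the groups overlapped. The log2 fold change of -1.26 ± 0.49 was the largest of any member in size and did not pass (edgeR adjusted p = 0.196, exact permutation p = 0.0346). Without iNICD replicate 6 it was -1.86 and passed (edgeR adjusted p = 0.0246), and it also passed with the number in the descriptions as a replicate block. It was -2.09 within female libraries (edgeR adjusted p = 0.0658) and -0.76 within male libraries (edgeR adjusted p = 0.812), and the sex by genotype interaction had an edgeR adjusted p of 0.916 or more for every tested member. *Sfrp1* ranged between 35.6 and 90.9 normalized CPM in control LA (median 73.5) and between 56.2 and 94.2 in iNICD LA (median 68.1) and overlapped (log2 fold change 0.04 ± 0.20, edgeR adjusted p = 0.941). *Sfrp2* and *Sfrp4* had log2 fold changes of -0.04 and -0.03, with SE of 0.34 and 0.38.

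Markers of other cell types were read beside these antagonists. Epicardial and mesothelial markers summed to 212 to 284 normalized CPM in control LA and 136 to 262 in iNICD LA, with 0 of 6 called; all 6 had log2 fold changes below 0 (-0.73 to -0.14, median -0.30). Fibroblast markers summed to 3000 to 4314 and 3102 to 4956, with 0 of 8 called. Pericyte markers summed to 391 to 532 and 568 to 716, a difference carried mostly by *Cspg4*, the 1 of 5 called (log2 fold change 1.89); the other 4 summed to 353 to 490.1 and 422 to 528, which overlapped, and *Rgs5*, *Abcc9*, *Kcnj8* and *Pdgfrb* had log2 fold changes of 0.21, 0.20, 0.11 and -0.10. The endothelial, smooth muscle, macrophage, Schwann cell and adipocyte lists held no called gene. Hemoglobin transcripts, a sign of blood in the tissue, summed to 57.2 to 235 and 25.9 to 131, with 0 of 4 called. All 4 had log2 fold changes below 0 (-1.33 to -0.98, median -1.31). The part of these cells in the values of *Dkk3*, *Sfrp5*, *Fzd2* and *Lrp6* was not tested.

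**Figure D4:**
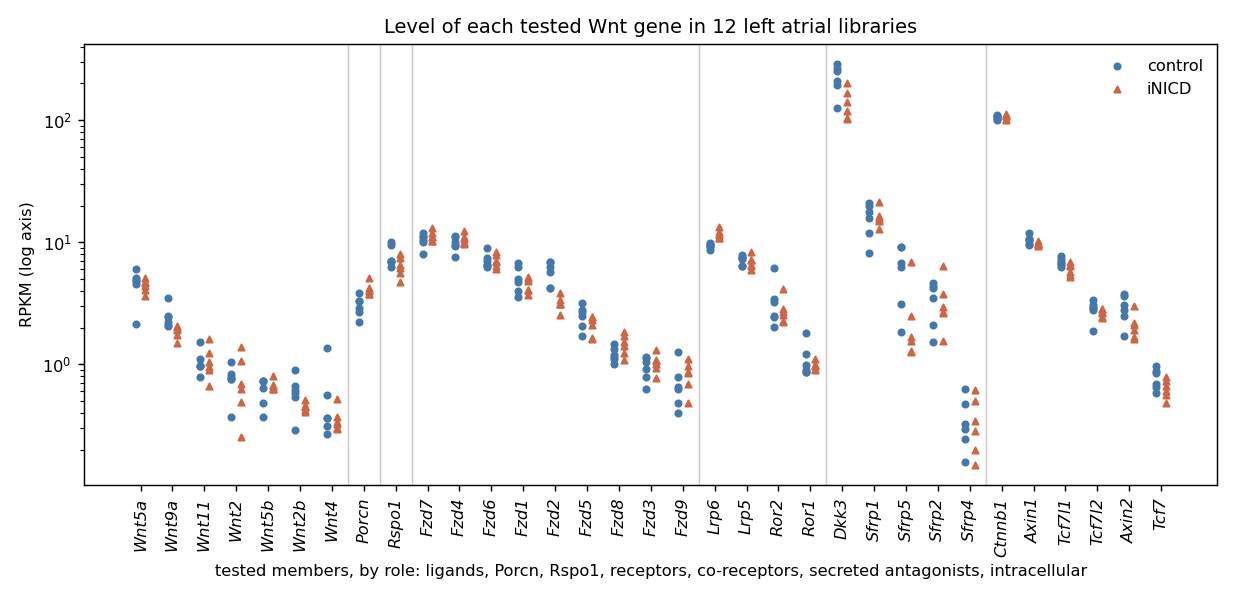
RPKM (y axis, log scale) of the 33 tested members in the 6 control (circles) and 6 iNICD (triangles) libraries, grouped by role along the x axis. *Dkk3* and *Ctnnb1* are the most abundant genes, and only *Fzd2*, *Lrp6* and *Wnt9a* have groups that do not overlap.

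Inside the cell, 6 of 7 members were tested and none was called in either direction by edgeR at an adjusted p under 0.05 (at an unadjusted p under 0.05, 0 were higher and 2 were lower; DESeq2 and exactTest also called 0). *Ctnnb1*, which encodes β-catenin, was steady across animals, between 524 and 575 normalized CPM in control LA (median 549) and between 524 and 585 in iNICD LA (median 563), with CVs of 3.54% and 4.20%. Its log2 fold change was 0.02 ± 0.05 (edgeR adjusted p = 0.858). *Axin1* ranged between 36.3 and 45.7 normalized CPM in control LA (median 39.7) and between 35.8 and 39.2 in iNICD LA (median 37.2) and overlapped (log2 fold change -0.10 ± 0.06, edgeR adjusted p = 0.437). *Axin2*, read in many tissues as a target of β-catenin, had lowest, median and highest values of 9.31, 16.0 and 20.6 normalized CPM in control LA and of 8.94, 11.02 and 16.5 in iNICD LA. The groups overlapped, with 3 controls above all iNICD libraries and 2 iNICD libraries below all controls, and the log2 fold change of -0.47 ± 0.20 did not pass (edgeR adjusted p = 0.226, exact permutation p = 0.0606).

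*Tcf7l1*, a Tcf factor that mostly represses, had lowest, median and highest values of 24.5, 26.9 and 30.3 normalized CPM in control LA and of 20.3, 23.5 and 27.3 in iNICD LA. The groups overlapped, and the log2 fold change of -0.20 ± 0.08 did not pass (edgeR adjusted p = 0.225, exact permutation p = 0.0368). It was -0.40 within female libraries (edgeR adjusted p = 0.0454) and 0.00 within male libraries; a test of that difference, the sex by genotype interaction, had an edgeR adjusted p of 0.916. *Tcf7* and *Tcf7l2* had log2 fold changes of -0.27 and -0.10 and did not pass. Genes on the other strand overlap *Ctnnb1* over 759 bases, *Axin2* over 209, *Tcf7l1* over 179 and *Lef1* over 1208, and *Ctnnb1* also shares 23 bases with a microRNA gene on its own strand.

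The remaining 20 members were under the filter, with a highest mean of 0.606 CPM. *Wnt6*, *Wnt7b*, *Wnt9b*, *Wnt10b*, *Lef1*, *Rspo3* and *Wif1* had at least 10 reads in some library, the highest being *Wnt10b* with 27 reads in 1 control. *Lef1*, a nuclear partner of β-catenin, summed to 37 reads over the control libraries and 63 over the iNICD libraries, and *Wif1*, a Wnt-binding antagonist, to 89 and 40; in both genes the groups overlapped. Another 10 members had between 1 and 9 reads at most: *Wnt1*, *Wnt3a*, *Wnt7a*, *Wnt8b*, *Wnt10a*, *Wnt16*, *Fzd10*, *Dkk1*, *Dkk2* and *Dkkl1*. *Wnt3*, *Wnt8a* and *Dkk4* had 0 reads in all 12 libraries, which over their summed total allows a level of up to 0.0102 CPM (3 reads, counting error only). These 20 genes were not tested. With no filter on expression 50 of the 53 members entered the test, and again 1 was called higher and 1 lower.

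The rest of the pathway was read from 7 lists, chosen with earlier results of these data known, so shares within them are description only. They hold 92 further Wnt genes, of which 79 were tested. By edgeR 5 were higher in iNICD LA and 0 lower at an adjusted p under 0.05 (6.33% of them higher, against 2.78% of all tested genes). DESeq2 called 7 higher (*Amer1* and *Camk2g* added) and 2 lower, where it called 4.54% of all tested genes higher and 3.28% lower. ExactTest called 6 higher (*Amer1* added) and 1 lower, where it called 3.63% and 2.06% of all tested genes. At an unadjusted p under 0.05, 12 were higher (15.2%, against 9.32% of all tested genes) and 5 lower (6.33%, against 8.09%). The median of their log2 fold changes was -0.000876. Of 21 cytoplasmic relay genes, 3 were higher (14.3%, against 2.78% of all tested genes). *Tnks*, tankyrase, which marks Axin for degradation, rose from 62.9 ± 2.90 normalized CPM (SD, n = 6) in control LA to 107 ± 7.68 (SD, n = 6) in iNICD LA, and every iNICD library (100.5 to 119) was above every control (60.0 to 66.4; log2 fold change 0.76 ± 0.06, edgeR adjusted p = 4.82e-06). *Cxxc4*, an inhibitor that binds Dishevelled, rose from 6.77 ± 2.41 normalized CPM (SD, n = 6) in control LA to 15.6 ± 2.19 (SD, n = 6) in iNICD LA, again without overlap (log2 fold change 1.20 ± 0.25, edgeR adjusted p = 0.0155). *Csnk1g1*, a membrane casein kinase that can phosphorylate Lrp6, rose from 18.3 ± 2.05 normalized CPM (SD, n = 6) in control LA to 23.3 ± 2.01 (SD, n = 6) in iNICD LA, with groups that overlapped (log2 fold change 0.35 ± 0.08, edgeR adjusted p = 0.0367). The *Csnk1g1* call was lost in 15 of 23 alternative fits, 9 of them fits without 1 library, whereas *Tnks* and *Cxxc4* were lost in 1 of 23, the male libraries alone.

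Among 5 tested surface co-receptors outside the members, *Ryk*, a Wnt-binding receptor without an active kinase, rose from 71.7 ± 5.52 normalized CPM (SD, n = 6) in control LA to 93.0 ± 5.26 (SD, n = 6) in iNICD LA, and the groups did not overlap (log2 fold change 0.38 ± 0.06, edgeR adjusted p = 0.00386). Of 22 tested genes of the planar polarity and calcium branch, *Nfatc2*, a calcium-regulated transcription factor, rose from 28.4 ± 5.73 normalized CPM (SD, n = 6) in control LA to 44.5 ± 9.89 (SD, n = 6) in iNICD LA, with groups that overlapped narrowly (log2 fold change 0.65 ± 0.16, edgeR adjusted p = 0.0360). The *Nfatc2* call was lost in 11 of 23 alternative fits, 6 of them fits without 1 library, and that of *Ryk* in 1 of 23, the male libraries alone. None of the 6 tested secretion and agonist genes, 4 other antagonists, 14 nuclear cofactors or 11 common Wnt target genes was called by edgeR's quasi-likelihood test with all libraries; *Tpbg*, of the secretion and agonist list, was called lower by DESeq2 and exactTest. Without control replicate 5, *Cd44*, a cell surface glycoprotein among the common targets, passed (log2 fold change 1.22, edgeR adjusted p = 0.0128), as did *Csnk1e* (0.32, edgeR adjusted p = 0.0179) and *Camk2g* (0.27, edgeR adjusted p = 0.0454), kinases of the relay and calcium lists. Over all 23 alternative fits *Camk2g* passed in 6 and *Cd44* and *Csnk1e* in 2 each. In those 11 targets 1 was higher (9.09%, against 9.32% of all tested genes) and 2 were lower (18.2%, against 8.09%) at an unadjusted p under 0.05, and the median log2 fold change was -0.04.

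**Figure D5:**
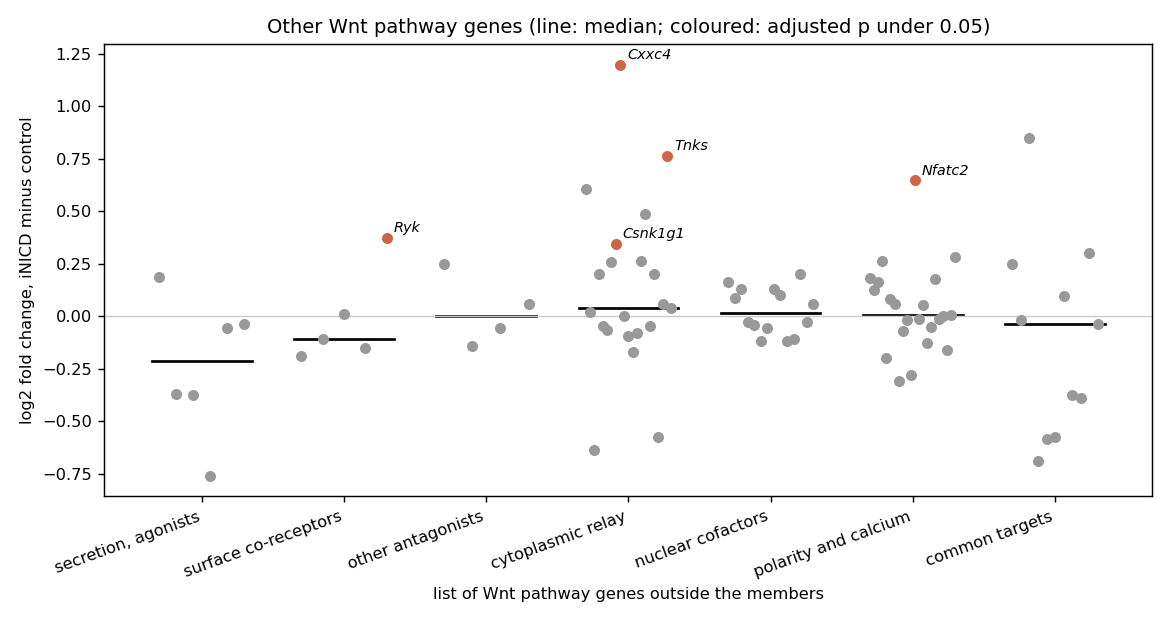
Log2 fold change (y axis, iNICD minus control) of the tested Wnt pathway genes outside the members in 7 lists (x axis), with the median of each list as a black line; a gene in more than 1 list is drawn in each. The 5 coloured and named genes had an adjusted p under 0.05, and *Cxxc4* at 1.20 and *Tnks* at 0.76 lie highest among them.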

How the data were processed

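RNA was sequenced from the LA of 12 mice as stranded single-end 50-base reads after removal of ribosomal RNA. The authors deposited raw counts per gene name with no normalization, and a length in bases, another unit. The submitters' processing notes name cutadapt, STAR 2.4.2a, Subread with featureCounts, edgeR and mm10, whereas the supplemental methods also describe a TopHat2 route; the table names neither. Each library is a separate animal, grouped by title.

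All genes above 1 CPM in 6 libraries or more were TMM-normalized and compared with edgeR 4.0.16 in R 4.3.3 (quasi-likelihood, two-sided, Benjamini-Hochberg over all tested genes, threshold 0.05). The script was tested on simulated data. RPKM is normalized CPM per kilobase of the deposited length. Single values were compared by exact permutation over 924 splits of log2(CPM + 0.1). Alternatives used DESeq2 1.42.0, edgeR's exactTest, other scalings and filters, sex, replicate blocks and leaving out each library. Depth limits what can be said of genes with few reads. Gene positions are from GENCODE M21 (GRCm38), coding sequences from its transcripts, promoters from RefSeq (GRCm38.p6), with Python 3.11.15. Members, gene lists and tests were chosen with earlier results of these data known. Named genes are those past the threshold, without overlap, at an unadjusted p under 0.05, or among the 3 highest by RPKM in a role.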

Additional observations from a re-analysis of the deposited data

Results flagged for a closer look

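In 9 of 66 groups of 6 libraries (33 tested members, 2 groups each) the highest library lay farther from the next than Dixon's 95% limit allows. Both ends of each group were searched, and all 9 flags were the highest library. For normally distributed values chance flags about 1 in 20 groups, or 3.3 here. The CPM were not log-transformed for this, and whether they are normally distributed was not tested. Of the 9, 3 were control replicate 5. In that library *Wnt9a* stood at 11.7 normalized CPM with the next control at 8.27, *Ror1* at 10.4 with the next at 6.95, and *Wnt4* at 5.66 with the next at 2.36. *Ror2* was highest in control replicate 2 (26.2 normalized CPM, next control 14.5) and in iNICD replicate 2 (17.5, next iNICD library 11.97).

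In iNICD replicate 6, *Sfrp5* stood at 13.0 normalized CPM with the next iNICD library at 4.76, *Porcn* at 15.4 with the next at 12.6, and *Wnt5b* at 2.13 with the next at 1.78. *Wnt4* in iNICD replicate 1 was at 2.19 normalized CPM with the next iNICD library at 1.55. *Fzd2* and *Lrp6* had no such library in either group.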

How the results depend on the processing

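The count of members was 1 higher and 1 lower. DESeq2 and exactTest each gave 2 higher (*Porcn* added) and 2 lower (*Dkk3* added). Female libraries alone gave 0 higher and 2 lower (*Tcf7l1* added), with 264 higher and 131 lower calls among all genes, and male libraries alone 0 and 0, with 8 and 0. Leaving out 1 library at a time gave 1 to 2 higher (2 without control replicate 4, with *Porcn*) and 1 to 2 lower (2 without control replicate 5, with *Dkk3*, or without iNICD replicate 6, with *Sfrp5*). Over all tested genes these fits called 2.02% to 3.66% higher and 0.679% to 2.25% lower, with both maxima without control replicate 5. *Fzd2* passed in 22 of 23 alternatives (log2 fold change -0.92 to -0.79) and *Lrp6* in 21 of 23 (0.29 to 0.36). *Tcf7l1* changed sign in male libraries alone (0.0042 against -0.20). Of 437 alternative values of the 19 named members, 398 kept both direction and side of the threshold and 27 changed sign, in 9 members: *Wnt11* in 11 fits, *Fzd6* and *Sfrp1* in 4 each, *Wnt5a* in 3, and *Lrp5*, *Ror2*, *Ctnnb1*, *Fzd4* and *Tcf7l1* in 1 each. The causes of these shifts were not tested.

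For the other pathway genes, 5 were higher and 0 lower. Male libraries alone gave 0 higher. Leaving out 1 library gave 3 to 8 higher: 8 without control replicate 5, and 3 without control replicate 1, 3 or 4, or iNICD replicate 1, 4 or 6. Over all tested genes, 3.66% were called higher without control replicate 5, against 2.78% with all libraries. The fits that gave 3 called 2.02% to 2.43% of all tested genes higher. Lower genes were 2 in DESeq2 (*Dvl3*, *Tpbg*), 1 in exactTest (*Tpbg*), 1 in female libraries (*Apc2*) and 0 to 1 on leaving out a library (*Tpbg* without control replicate 6).

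The labels do not state whether replicate numbers pair the animals. Same-numbered libraries correlated between -0.15 and 0.41 in their deviations from the group means, which does not decide it. With the number in the titles as a replicate block, 1 member was higher and 1 lower, and 3 other pathway genes were higher (*Csnk1g1* and *Nfatc2* lost). With the number in the descriptions, 1 member was higher and 2 were lower (*Sfrp5* added), and 4 other pathway genes were higher (*Csnk1e* added, *Csnk1g1* and *Nfatc2* lost). Over all tested genes the title block called 2.45% higher and 1% lower, and the description block 2.1% and 1%.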
